A study of Mus musculus with 6 samples.

Results

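Interferon-stimulated genes were followed in freshly isolated thymocytes of mice that lacked Klf4 in T cells. The list named 45 genes known for their place in the interferon response, and a probe was matched by its annotated symbol. The array named 44 of the 45 among 16593 gene symbols, on 74 of 25697 probes, and Ifi44 was not analysed here. Where a gene had several probes, the probe with the highest mean over the 6 arrays stood for it.

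The 3 knockout mice (KO, Th_KO in the labels) were Klf4fl/fl-CD4-Cre+, and the 3 control mice (Th_WT) were Klf4fl/fl-CD4-Cre-, so both groups carried floxed Klf4 and the controls lacked the Cre transgene. In the KO mice Cre recombinase was driven by the Cd4 promoter, which is active from the double-positive stage of thymocyte development onward, and a control with Cre but without floxed Klf4 is not used here. All mice were on the C57/BL6 background, 8 to 10 weeks old, with no treatment. CD4-expressing cells were enriched with a kit of either of 2 suppliers, not recorded by mouse, to a purity above 94%, and are labelled as double-positive and CD4 single-positive (DP+SP4) thymocytes. Each mouse had 1 array.

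Interferons are secreted proteins that warn cells of infection. Type I interferons bind the receptor chains IFNAR1 and IFNAR2, the kinases JAK1 and TYK2 then act on STAT proteins, and a complex that holds STAT2 and IRF9 binds the interferon-stimulated response element (ISRE) in the promoters of antiviral genes. In the uninfected thymus, a low constitutive interferon signal is known from the medulla, and developing T cells carry a baseline of such transcripts. KLF4, a DNA-binding factor of the Krüppel-like family, is known for holding back proliferation. The comparison asks how loss of Klf4 alters T cells before any challenge.

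The promoter sequences of the members are shown because the ISRE is an element through which type I interferon acts, and the results by gene refer back to them. The ISRE core was searched on both strands as GAAA, any bases NN, then GAAA again, in RefSeq windows of 300 bases (250 before to 50 after each start, build GRCm38.p6), and overlapping copies were counted separately. Of 35 members with a window, 18 (51.4%) held the core, against 3.99% of 27025 genes (3.44% of 32851 windows). It was found in 1 of 6 signalling genes, 5 of 9 RNA sensors, 8 of 16 effectors and 4 of 4 GTPases. For 7 members, stretches that hold the core with 20 bases on either side and lie wholly before the start are printed 5′ to 3′ on the gene's strand, with the core in capitals.
Ifit3: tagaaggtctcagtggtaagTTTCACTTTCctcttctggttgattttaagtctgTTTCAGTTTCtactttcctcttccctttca
Bst2: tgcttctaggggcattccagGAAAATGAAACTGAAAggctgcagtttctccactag
Rsad2: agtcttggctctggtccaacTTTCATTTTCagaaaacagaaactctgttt
Isg15: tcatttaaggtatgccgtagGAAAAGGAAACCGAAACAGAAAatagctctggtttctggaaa
Oas3: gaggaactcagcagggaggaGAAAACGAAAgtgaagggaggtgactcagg
Gbp3: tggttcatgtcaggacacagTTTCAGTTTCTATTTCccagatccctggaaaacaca
Igtp: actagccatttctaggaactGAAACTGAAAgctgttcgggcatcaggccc

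These stretches lie at chr19:34583353-34583436 (plus strand, Ifit3), chr8:71537567-71537622 (minus, Bst2), chr12:26456543-26456592 (minus, Rsad2) and chr4:156200855-156200916 (minus, Isg15). The others lie at chr5:120777705-120777754 (minus, Oas3), chr3:142559979-142560034 (plus, Gbp3) and chr11:58199502-58199551 (plus, Igtp). The 2 cores of Ifit3 were apart, while the 2 of Bst2, the 2 of Gbp3 and the 3 of Isg15 overlapped. In Ddx58, Eif2ak2 and Ifih1 the only core began after the start site, as did both cores of Ifitm3 and of Trim21. A second motif, the gamma-activated site searched as TTCNNNGAA, was present in 12 of the 35 members (34.3%), Irf1 and Igtp among them, and in 9.55% of all genes (8.3% of windows). A match is a description of letters in these windows, not a measured binding site.

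**Figure D1:**
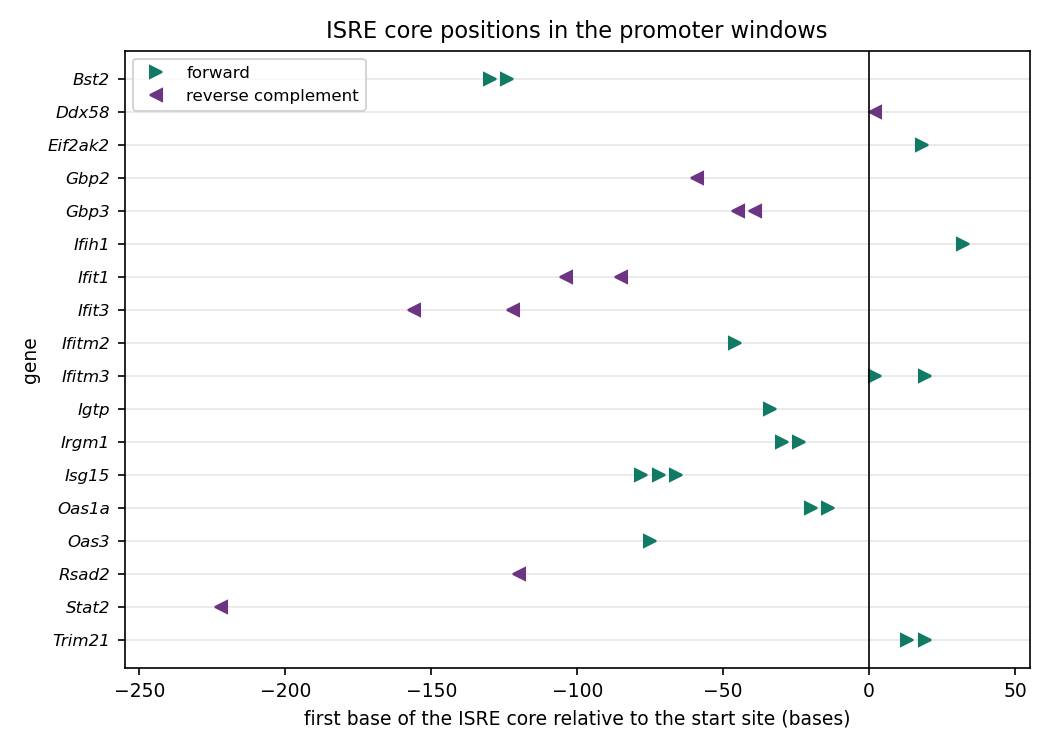
Position of each ISRE core in the promoter windows of the 18 members that hold one (rows, gene symbols). The horizontal axis gives the first base of the core relative to the start site in bases, and triangles show the core's direction. Cores of Bst2, Ifit3, Isg15, Rsad2 and Oas3 lie before the start, and those of Ddx58, Eif2ak2 and Ifih1 after it.

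All values are in z units: each array as deposited has a mean of 0 with an SD of 1, and quantile normalization was added here. Whether intensities or their logarithms were standardised is unknown, so no fold change is given, and values of different probes are not set against each other. Klf4 itself, on probe ILMN_1241903, read -0.555, -0.758 and -0.696 in KO mice, against 0.0498, 0.109 and -0.145 in control mice, a difference of -0.674 (SE 0.0652, limma adjusted p = 0.000365). Probe ILMN_1221264 differed by -0.376 (adjusted p = 0.0232), and probe ILMN_2999439 by 0.0367 (adjusted p = 0.959). The second of these calls was lost in limma with 1 prior variance for all probes (adjusted p = 0.105), without KO 2 (adjusted p = 0.16), without control 1 (adjusted p = 0.184) and without control 2 (adjusted p = 0.162). The sign of probe ILMN_2999439 turned without KO 2 and without control 3. The position of each probe relative to the deleted part is not known here. T-cell transcripts marked the arrays as labelled, with Cd3e between 3.44 and 3.68, Cd8b1 between 4.56 and 4.67 and Cd4 between 1.16 and 1.4 in the 6 mice, although the Cd8a probe read only -0.831 to -0.746.

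Control 3 stood apart from the other mice on sex-linked genes. It read 2.12 for Xist and -0.834 for Eif2s3y, whereas the other 5 mice read -0.558 to -0.404 for Xist and 1.53 to 1.89 for Eif2s3y. The labels do not give the sex of any mouse. Counts and medians over groups of interferon-stimulated genes are therefore given with and without control 3. In bulk samples, fewer cells of a type and less RNA per cell cannot be told apart.

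No interferon-stimulated gene passed the test between the genotypes. In limma over all 25697 probes, 0 of the 44 genes were called higher and 0 lower in KO mice at an adjusted p under 0.05, and the lowest adjusted p on the probe that stood for a gene was 0.431, for Ifit3. Across the array 0% of probes were called higher and 0.00778% (2 probes, both of Klf4) lower. At an unadjusted p under 0.05, 10 of the 44 (22.7%) were higher and 0 were lower in KO mice. For all gene symbols these shares were 3.37% higher and 4.22% lower. Without control 3, 6 of the 44 (13.6%) were higher and 0 lower, beside 3.69% higher and 3.89% lower of all symbols. The count was also 6 without KO 3 and 6 without control 2, 5 without KO 2, and 8 and 11 without control 1 and KO 1. Shares of all symbols were not counted in these other fits.

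Most differences were small and above 0. Of the 44 genes 35 (79.5%) had a KO minus control difference above 0, where 48.9% of all symbols had one. The median difference was 0.0447 for the 44 genes and -0.00129 for all symbols. Without control 3, 28 of 44 differences (63.6%) were above 0, where 8044 of the 16593 symbols had one above 0. The median was then 0.0292, beside -0.0023 for all symbols. Without KO 1 the median was 0.0735. All 3 KO values lay above all 3 control values for 5 genes (11.4%), Ddx58, Eif2ak2, Oas3, Adar and Ifit3, and below them for 0, against 6.1% above and 6.79% below over all symbols. Without control 3 the KO values lay above both remaining controls for 7 genes (15.9%) and below them for 0, beside 11.6% and 13% of all symbols. The median half-width of the 95% interval of a difference was 0.115. For 39 of the 44 genes the interval lay within 0.3 on either side of 0, a count not made over all symbols. That bound is wide, as 0.0723% of all symbols had a difference below -0.3 and 0.0844% one above 0.3.

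**Figure D2:**
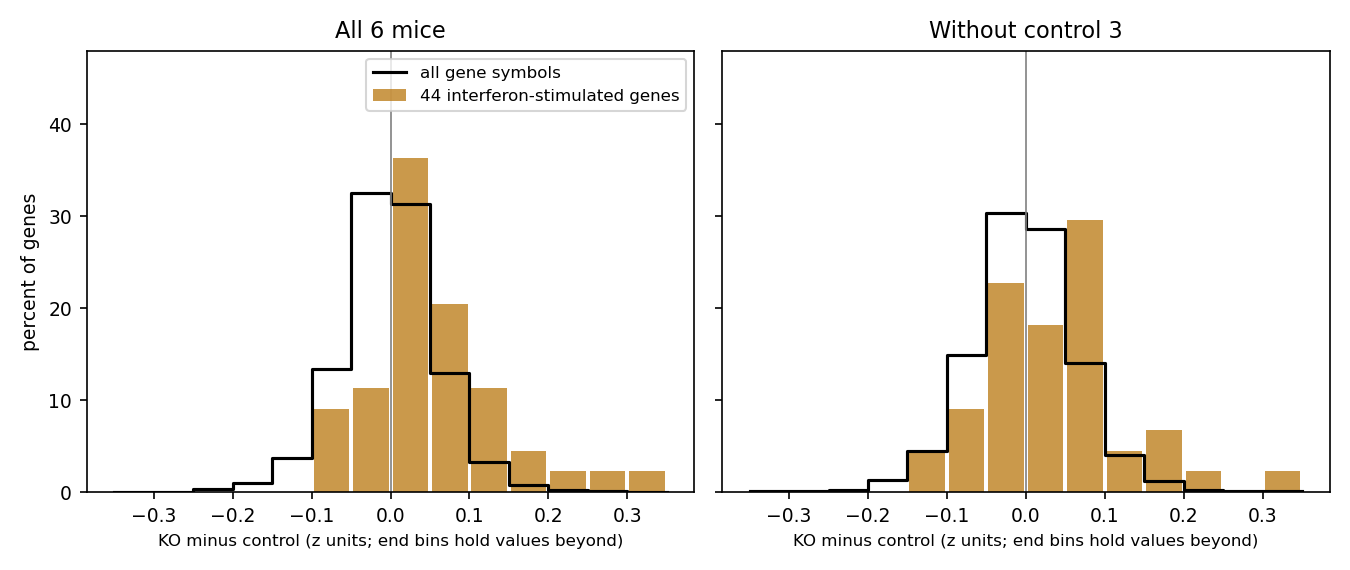
Share of genes (percent, vertical axis) by KO minus control difference (z units, horizontal axis) for the 44 interferon-stimulated genes (bars) and all 16593 gene symbols (black line), with all 6 mice at left and without control 3 at right. With 6 mice 35 of 44 genes lie above 0, and without control 3 28 of 44 do.

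None of the 7 signalling genes was past an unadjusted p of 0.05 on the probe that stood for it. IRF9, the DNA-binding subunit that joins STAT2, was measured on 2 probes. Irf9 on its brighter probe read 1.3, 1.34 and 1.39 in KO mice, against 1.32, 1.25 and 1.21 in control mice, a difference of 0.083 (SE 0.0558, limma adjusted p = 0.777). The groups overlapped there. On its second probe, ILMN_2636339, Irf9 read 0.878, 1.07 and 0.983 in KO mice and 0.644, 0.72 and 0.764 in control mice. That probe differed by 0.269 (SE 0.0615, adjusted p = 0.295, 95% interval 0.139 to 0.399), with no overlap, and by 0.296 without control 3. It was the lowest unadjusted p (0.000451) among the 74 member probes, and it was not the probe that stood for the gene.

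Stat2 read 0.501, 0.427 and 0.473 in KO mice, against 0.481, 0.395 and 0.488 in control mice, a difference of 0.0122 (adjusted p = 0.979). The receptor chain gene Ifnar2 differed by -0.0861 (adjusted p = 0.807), with KO 3 the lowest mouse at 0.106 and control 3 the highest at 0.42. Its 2 other probes gave -0.0953 and -0.00373. Ifnar1 sat near the floor of the array in every mouse (-0.855 to -0.804 in KO, -0.839 to -0.782 in control mice), and differed by -0.0231. Irf1, an activator that responds strongly to interferon gamma, differed by 0.0222 to 0.115 on its 5 probes. The brightest, at 0.045, turned to -0.0102 without control 3. On the probe with 0.115, ILMN_2649067, Irf1 read 2.21, 2.21 and 2.12 in KO mice, against 2.1, 2.1 and 1.99 in control mice, with no overlap (limma adjusted p = 0.657). Irf7, the factor that amplifies type I interferon production, differed by 0.0444 (adjusted p = 0.891).

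Usp18 removes the ubiquitin-like protein ISG15 from its targets and damps signalling at IFNAR2. On all 3 of its probes control 3 was lowest, KO 1 next and control 2 after it. Usp18 read 0.904, 1.1 and 1.16 in KO mice 1 to 3, against 1.23, 1.03 and 0.765 in control mice 1 to 3, a difference of 0.0497 (SE 0.0925, adjusted p = 0.944). The spread within each genotype was larger than the difference, with SDs of 0.135 in KO and 0.231 in control mice (n = 3 each). Without control 3 the difference was -0.0704, and without KO 3 it was -0.005. As a group, 5 of 7 signalling genes had differences above 0, with a median of 0.0444. Without control 3, 3 of 7 were above 0, with a median of -0.0102.

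The RNA sensors and RNA-binding antiviral enzymes comprised 12 genes, each with a difference above 0 in the 6 mice, with a median of 0.0813 and a range of 0.00603 to 0.171. Without control 3 the median was 0.0768, with 10 of 12 above 0, Oasl2 and Zbp1 being the exceptions. With any 1 mouse left out, 5 of the 12 turned below 0 in some fit, namely Ifih1, Trim25, Oas2, Oasl2 and Zbp1. None of the 12 passed over all probes. At an unadjusted p under 0.05, 5 of them were higher (3 without control 3), beside 3.37% of all symbols (3.69% without control 3).

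Ddx58 encodes RIG-I, the cytosolic helicase that senses viral RNA with a triphosphate end. It read 0.712, 0.757 and 0.728 in KO mice, against 0.577, 0.556 and 0.552 in control mice. The lowest KO value lay clear of the highest control value, and both groups were tight (SD 0.0226 in KO, 0.0137 in control mice, n = 3 each). The difference was 0.171 (SE 0.052, 95% interval 0.0605 to 0.281, limma adjusted p = 0.486), and it stayed between 0.158 and 0.181 when any 1 mouse was left out.

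Eif2ak2 encodes PKR, a kinase that binds double-stranded RNA and blocks translation. Its values were 1.09, 1.06 and 1.03 in KO mice and 0.887, 0.931 and 0.916 in control mice. Here too the groups were apart, with a difference of 0.148 (SE 0.0531, adjusted p = 0.548) and a range of 0.133 to 0.162 with any 1 mouse left out. Adar encodes the enzyme that edits adenosine in double-stranded RNA and so limits self-sensing. It read 0.584, 0.611 and 0.643 in KO mice, against 0.551, 0.538 and 0.533 in control mice, a smaller difference of 0.072 (SE 0.052, adjusted p = 0.795). The other Adar probes gave 0.137 and 0.0134.

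The oligoadenylate synthetase encoded by Oas3 makes the messenger that activates RNase L when double-stranded RNA is present. Oas3 read -0.545, -0.584 and -0.597 in KO mice and -0.651, -0.73 and -0.645 in control mice, a difference of 0.0999 (SE 0.0411, adjusted p = 0.593). Its probe lay under the 40th percentile of the array, and a second Oas3 probe, also under it, gave 0.074. Oasl1 differed by 0.1 (adjusted p = 0.666), with KO 3 at -0.49 below control 1 at -0.465, and its other probes gave 0.0898 and 0.0258. Dhx58, which encodes LGP2, a RIG-I relative without a signalling domain, differed by 0.144 (adjusted p = 0.592). KO 1 at 0.188 read below control 1 at 0.209, and without control 3 the difference was 0.0953.

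Oasl2 and Oas2 varied between mice more than between genotypes. Oasl2 read 0.0361, 0.27 and 0.595 in KO mice 1 to 3, against 0.473, 0.405 and 0.00367 in control mice 1 to 3. KO 1 and control 3 were thus the lowest, KO 3 and control 1 the highest, the same placing as for Usp18. The Oasl2 difference was 0.0064 (95% interval -0.246 to 0.258, adjusted p = 0.998), with -0.139 without control 3 and -0.141 without KO 3. Oas2 differed by 0.0907, and by 0.0171 without control 3 and -0.00724 without KO 3. Ifih1, the gene of the long-RNA sensor MDA5, and Oas1a had dim probes and differed by 0.0404 and 0.0491. Trim25, the ubiquitin ligase linked to RIG-I activation, differed by 0.0402 and Zbp1, a sensor of left-handed nucleic acid, by 0.00603.

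**Figure D3:**
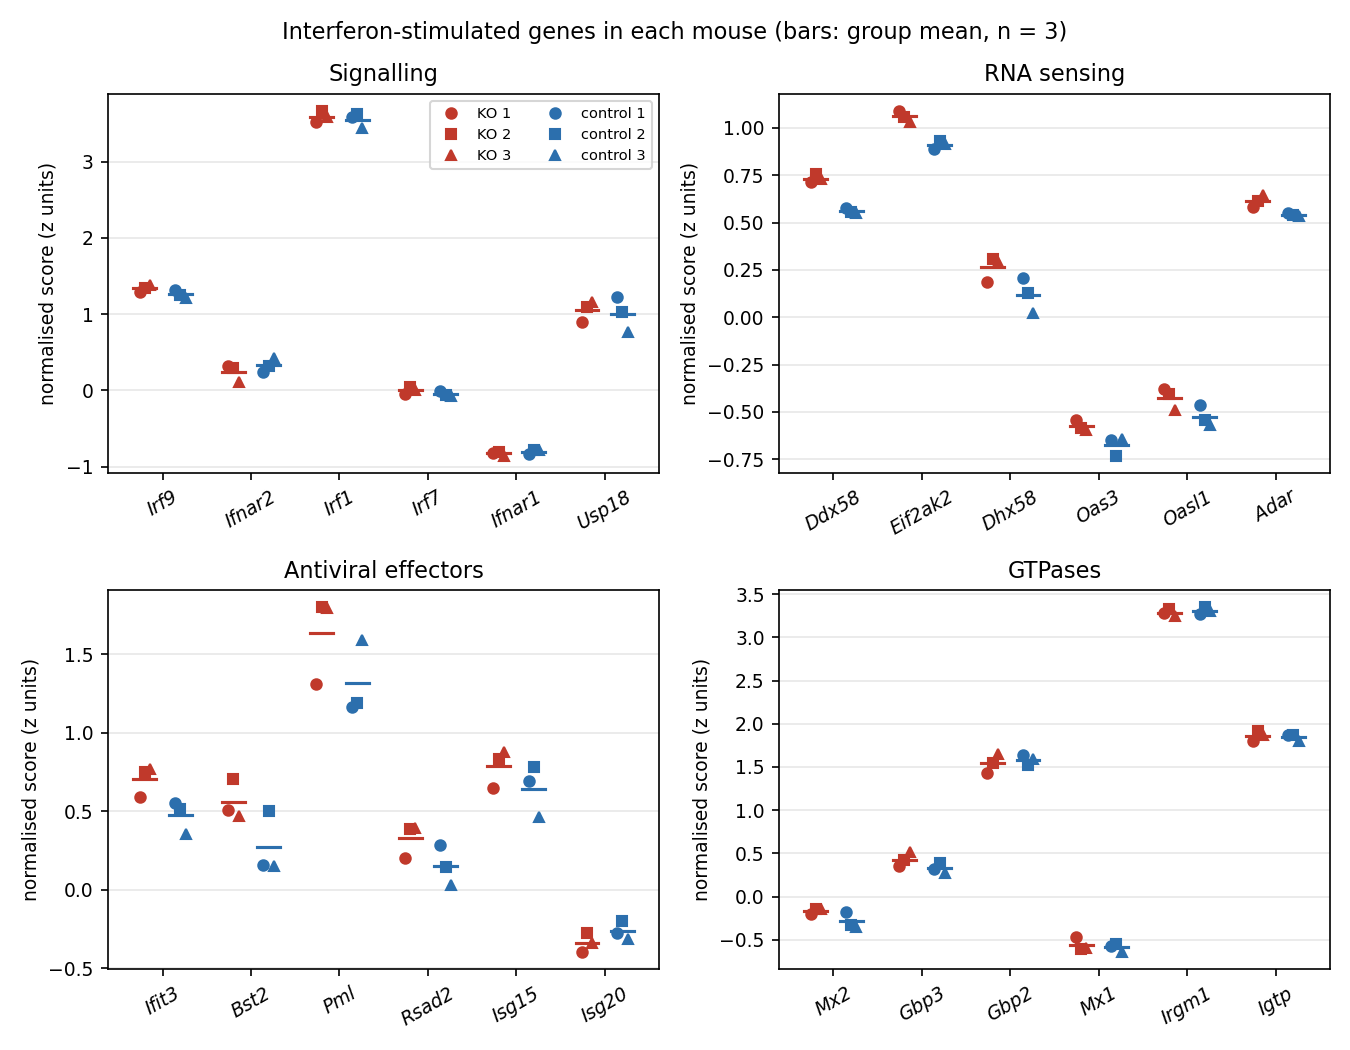
Normalised score (z units, vertical axis) of the 6 genes with the lowest unadjusted p in each role group, for KO mice (red, left of each gene) and control mice (blue, right), with a marker for each of the 3 mice and a bar at the group mean. KO points of Ddx58, Eif2ak2, Adar, Oas3 and Ifit3 lie above all control points, and the other genes overlap.

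The antiviral effectors were mixed. Of 19 genes 14 had differences above 0, with a median of 0.036 (0.0273 without control 3, 12 above 0), and 5 of the 9 differences below 0 among the 44 genes were theirs. None passed over all probes. At an unadjusted p under 0.05, 4 were higher (3 without control 3), beside 3.37% of all symbols (3.69% without control 3).

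Ifit3 belongs to the family of tetratricopeptide proteins that bind foreign RNA, and its promoter holds both ISRE cores printed above. It read 0.592, 0.75 and 0.77 in KO mice, against 0.554, 0.514 and 0.354 in control mice. The groups did not overlap, although KO 1 stood only slightly above control 1. The difference was 0.23 (SE 0.0658, 95% interval 0.0908 to 0.369, limma adjusted p = 0.431), and 0.17 without control 3. Its other probes gave 0.152 and 0.0418, and whether the probes separate Ifit3 from close paralogs was not tested. Of its relatives, Ifit2 differed by -0.0444 and -0.0804 on its 2 probes, and Ifit1, near the floor of the array, by 0.0235.

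Bst2 encodes tetherin, which holds budding virions at the cell surface and is also a marker of plasmacytoid dendritic cells. It read 0.506, 0.706 and 0.472 in KO mice, against 0.156, 0.503 and 0.152 in control mice. Control 2 lay within the KO range, while controls 1 and 3 lay well below it. The difference was 0.291 (SE 0.0847, 95% interval 0.112 to 0.471, adjusted p = 0.456), with 0.408 without control 2 and 0.219 without KO 2. The 6 listed markers of plasmacytoid dendritic cells were Siglech, Ccr9, Tcf4, Ly6d, Cox6a2 and Klk1. Their median difference was -0.0027, with 3 of 6 above 0. Siglech, the defining receptor of these dendritic cells, read 0.367 to 0.459 in KO mice and 0.325 to 0.5 in control mice. Whether thymocytes express the other listed markers was not tested, nor was the part of these dendritic cells in the Bst2 difference.

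Pml, the scaffold of nuclear bodies, differed by 0.319 on its brightest probe (SE 0.118, limma adjusted p = 0.554), but by 0.142 as the mean of its 3 probes. The brightest probe read 1.31, 1.8 and 1.8 in KO mice, against 1.16, 1.19 and 1.59 in control mice. The values formed a low set of KO 1, control 1 and control 2 and a high set of KO 2, KO 3 and control 3, which crosses the genotypes. A second probe, ILMN_2731835, split the mice the same way, at -0.669, -0.456 and -0.399 in KO and -0.773, -0.748 and -0.459 in control mice. That probe differed by 0.152, and the remaining Pml probe, ILMN_1237135, by -0.0447. The difference on the brightest probe was 0.482 without KO 1 and 0.458 without control 3, and 0.237 without KO 2. Sp100, the other nuclear-body gene on the list, differed by -0.0879 and was highest in control 3, at 0.381.

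Rsad2 encodes viperin, an enzyme that makes a chain-terminating nucleotide. It read 0.201, 0.386 and 0.391 in KO mice, against 0.282, 0.147 and 0.0315 in control mice, a difference of 0.173 (SE 0.0686, adjusted p = 0.587). Without control 3 it was 0.112. Isg15, the ubiquitin-like modifier with 3 overlapping ISRE cores, read 0.648, 0.833 and 0.875 in KO mice and 0.69, 0.78 and 0.461 in control mice. KO 1 lay below 2 of the controls, and the difference of 0.142 (SE 0.078, adjusted p = 0.723) was 0.0505 without control 3.

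The remaining effectors lay between -0.0756 and 0.0837. Parp14, an ADP-ribosyltransferase, differed by 0.0837, its partner gene Parp9 by 0.00101, and Ifi35 by 0.0696 (0.0132 without control 3). The membrane proteins that block viral entry, encoded by Ifitm3, Ifitm2 and Ifitm1, differed by 0.0695, 0.0525 and 0.036. Trim21, a cytosolic antibody receptor, differed by 0.0202 and Rtp4 by 0.00311. Below 0 were the exonuclease gene Isg20 at -0.0756, Samd9l, a brake on translation, at -0.0679 and Xaf1 at -0.0459.

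The interferon-inducible GTPases act against intracellular pathogens, and all 4 with a promoter window held an ISRE core. Their differences were small, with 4 of 6 above 0 and a median of 0.0251 (3 of 6 and -0.000812 without control 3). Mx2 read -0.206, -0.15 and -0.141 in KO mice, against -0.183, -0.329 and -0.354 in control mice. Control 1 overlapped the KO mice, and the difference was 0.123 (SE 0.0534, limma adjusted p = 0.621). Gbp3, a guanylate-binding protein gene, read 0.354, 0.417 and 0.51 in KO mice and 0.322, 0.384 and 0.276 in control mice, a difference of 0.0997 (adjusted p = 0.738), and 0.114 on a second probe where the groups did not overlap. Gbp2 differed by -0.0435, 0.0936 and -0.0057 on its 3 probes.

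Irgm1, which controls the other immunity-related GTPases, was bright and even, at 3.29, 3.33 and 3.24 in KO mice and 3.27, 3.35 and 3.31 in control mice. Its difference of -0.0235 (95% interval -0.109 to 0.0623) was 0.0302 with the deposited scores, so its sign depends on the scaling. Igtp, with a core close to its start site, read 1.8, 1.92 and 1.87 in KO mice, against 1.87, 1.87 and 1.8 in control mice. The difference was 0.0184 (95% interval -0.0943 to 0.131). Mx1 differed by 0.0318, and by -0.0121 without KO 1.

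**Figure D4:**
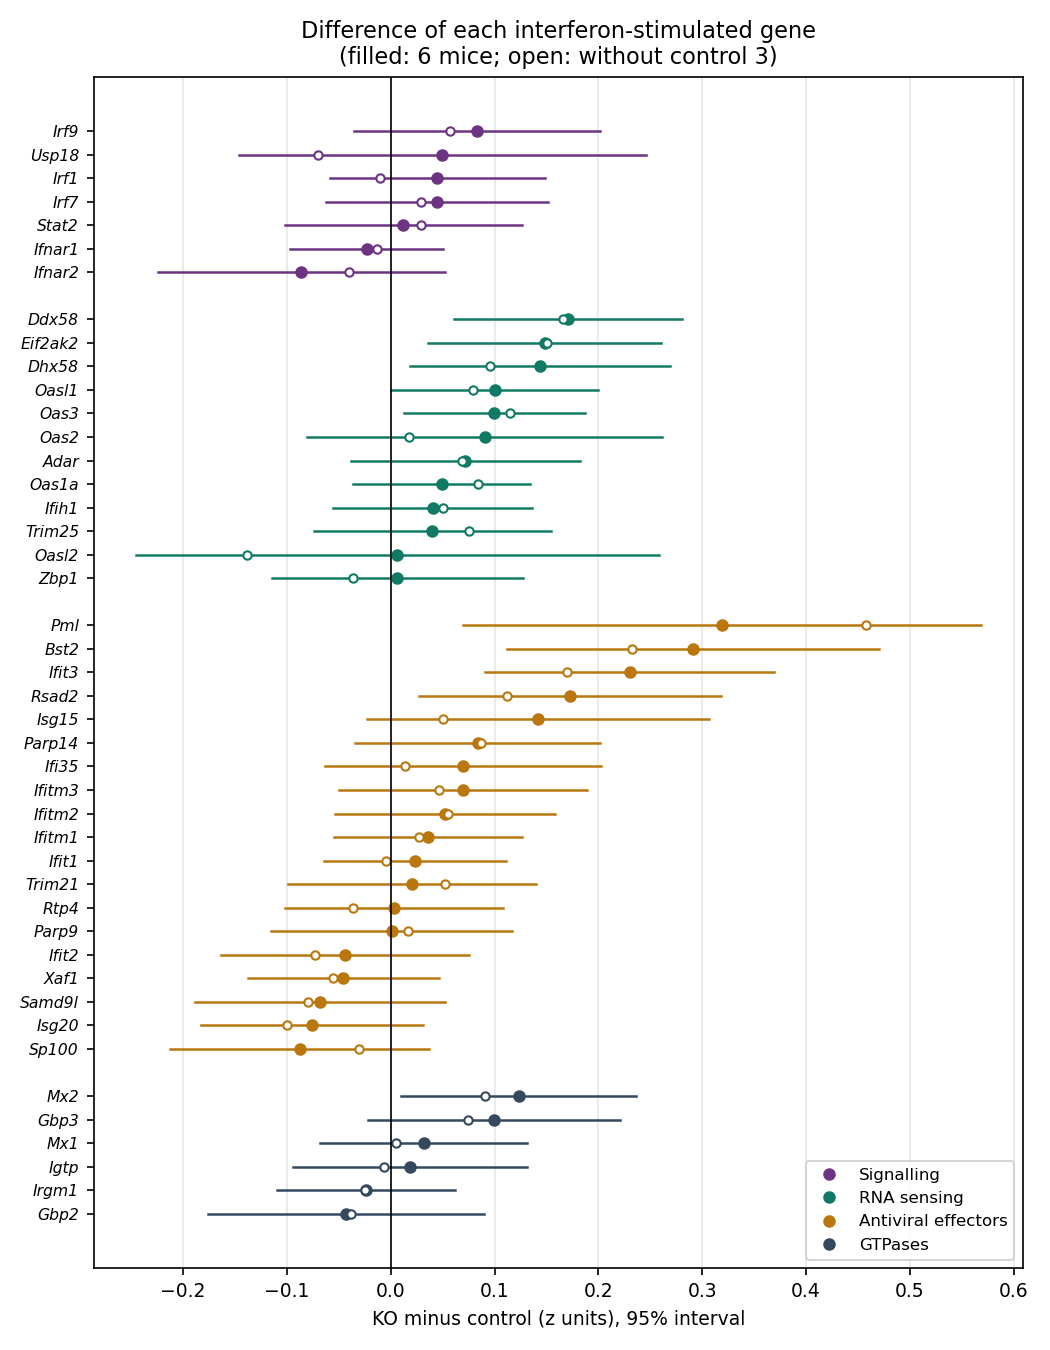
KO minus control difference (z units, horizontal axis) of the 44 genes (rows, by role group), with filled points and 95% intervals of limma for 6 mice and open points without control 3. All 12 RNA-sensing genes lie above 0 with 6 mice, and intervals of 10 of the 44 genes lie wholly above 0.

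Mice of 1 genotype did not read alike. Control 3 was the lowest of the 6 mice for 23 of the 44 genes (52.3%), where it was the lowest for 17.8% of all symbols. KO 2 and KO 3 were each the highest for 13 (29.5%), beside 16.4% and 14.8% of all symbols. After each gene was centred on its mean over the 6 mice, the median deviation was -0.0153, 0.0409 and 0.048 in KO mice 1 to 3, against 0.01, -0.0125 and -0.0552 in control mice 1 to 3. KO 1 thus lay beside the controls, and control 3 lay lowest.

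The 2 most frequent pairs of lowest mice are given, picked after the counts of all pairs were seen. Controls 2 and 3 were the 2 lowest mice for 12 genes (27.3%, against 5.98% of all symbols), among them Ifit3, Ddx58, Dhx58, Rsad2, Mx2 and Irf9. KO 1 and control 3 were the 2 lowest for 9 genes (20.5%, against 8.54%), namely Irf1, Usp18, Isg15, Ifi35, Oas2, Oasl2, Ifitm3, Igtp and Zbp1. The second pair crosses the genotypes. For genes with all KO values above the controls, such as Ifit3 and Ddx58, the 2 lowest mice are controls by necessity. Of 17 genes with several probes, 14 had differences of the same sign on all of them, the exceptions being Pml, Gbp2 and Ifitm1, and 11 of the 17 had so without control 3. Over the 74 probes, 57 differences were above 0, and 44 without control 3. Neither the count of same signs nor that of probes above 0 was made over the whole array. The median difference of all probes was 0.000124, and -0.00034 without control 3. Probes of a gene were read on the same arrays, so a shared sign is not a separate test.

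**Figure D5:**
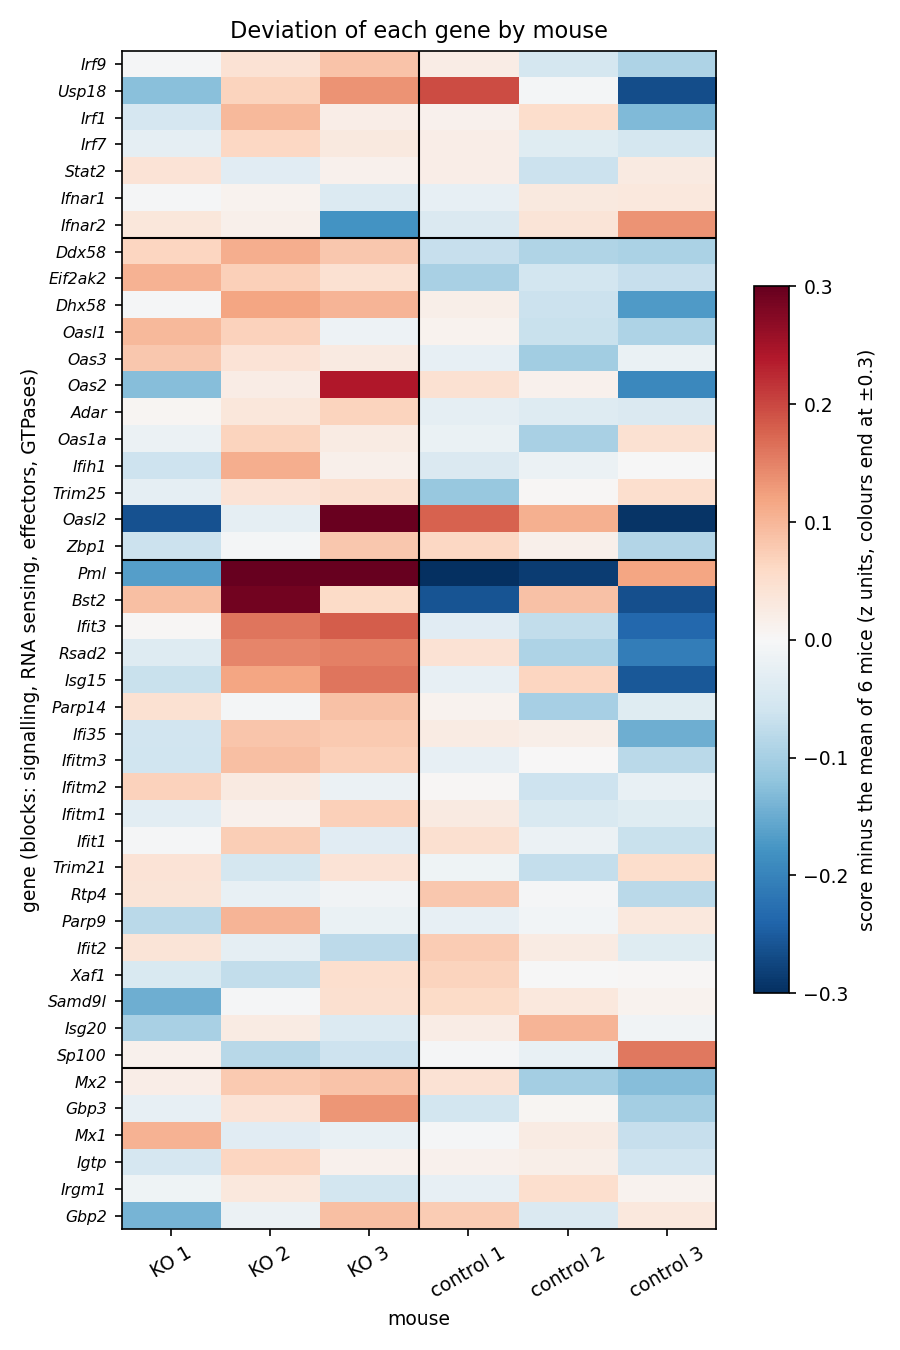
Score of each of the 44 genes (rows, by role group) in each mouse (columns, KO at left, controls at right) minus its mean over the 6 mice, in z units. Control 3 is the lowest mouse for 23 genes, and KO 1 and control 3 are low together for Usp18, Oasl2, Oas2 and Isg15.

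The 18 genes with an ISRE core in their window had a median difference of 0.061, with 16 above 0. The 17 genes with a window and no core had a median of 0.036, with 10 above 0. Without control 3 the medians were 0.0534 with a core and -0.0102 without, and 14 of 18 and 8 of 17 differences were above 0. These values describe groups made from the sequence, and the difference between them was not tested.

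Other genes of the interferon pathway were read beside the members. Of 38 listed genes on the array, 0 were called higher and 0 lower by limma, and 20 differences were above 0. At an unadjusted p under 0.05, 0 were higher and 2 lower, beside 3.37% and 4.22% of all symbols. The 11 interferon genes on the array had a median of -0.000627 and a range of -0.0379 to 0.0389, and Ifnb1, the gene of interferon beta, read -0.85 to -0.737 in KO mice and -0.834 to -0.731 in control mice. Among these, Ifna4 differed by 0.0389, Ifna5 by -0.0379 and Ifna12 by 0.0308. The 7 receptor and kinase genes had a median of 0.00346, with Jak1 at -0.0961 (adjusted p = 0.789), Ifnlr1 at 0.0355 and Jak2 at 0.0278. With any 1 mouse left out, Jak1 ran from -0.182 to -0.0445 and Ifnlr1 from 0.00874 to 0.0626.

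Regulators of the pathway include factors that compete with or oppose the activators. The 11 listed factors and brakes were not all of that kind, as Irf3 and Irf5 were among them. Of the 11 differences 3 were above 0, with a median of -0.0456, and 2 were lower at an unadjusted p under 0.05 (0 without control 3). Irf2, a repressor at ISRE sites, read 2.37, 2.57 and 2.43 in KO mice, against 2.57, 2.56 and 2.64 in control mice, a difference of -0.134 (SE 0.0544, adjusted p = 0.589). Ptpn6, the gene of the phosphatase SHP-1, read 1.99, 2.04 and 2.11 in KO mice and 2.13, 2.15 and 2.22 in control mice. Those groups did not overlap, with a difference of -0.119 (SE 0.052, adjusted p = 0.621) and -0.169 on a second probe. Irf8 differed by -0.0976 (adjusted p = 0.728), also without overlap. Adaptors of the sensors had 7 of 9 differences above 0 and a median of 0.0218, with Tbk1, the kinase that activates IRF3, at 0.0902, Tlr3 at 0.0636 and Myd88 at 0.0615. Tbk1 was 0.0349 without KO 1, and Myd88 was 0.0304 without control 3 and 0.116 without control 1.

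Markers of maturity and of other cells were read beside these results. All 11 markers of double-positive thymocytes had differences below 0 in the 6 mice, with a median of -0.0767, whereas 3 of 11 were above 0 without control 3, with a median of -0.0515. In the 6 mice limma called 0, with 0 higher and 4 lower at an unadjusted p under 0.05, beside 3.37% and 4.22% of all symbols. Without control 3, 3 were lower, beside 3.89% of all symbols. Themis differed by -0.239 and Dntt by -0.137 in the 6 mice. The median level of the list was the value of 1 gene, Aqp11, in every mouse, at 2.51 to 2.67 in KO and 2.68 to 2.75 in control mice. After each marker was centred on its mean over the 6 mice, the median deviation was -0.0353, -0.0343 and -0.00673 in KO mice 1 to 3. In control mice 1 to 3 it was 0.0216, 0.00469 and 0.0887, so control 3 was the highest. The 13 markers of mature CD4 single-positive cells had a median of -0.0189, with 6 above 0. The 12 macrophage, dendritic cell and MHC class II markers had a median of -0.0467, with 2 above 0. That median was -0.0114 without control 3, with 4 above 0. It was 0.0175 without KO 2 and -0.111 without KO 3. The median level of these markers ran from 0.476 to 0.892 in KO and 0.66 to 0.847 in control mice. Of these, Lyz2 on its brightest probe read 1.34 to 2.21 in KO mice and 1.53 to 2.25 in control mice, and C1qb read 0.517 to 1.11 in KO mice and 0.716 to 1 in control mice. Itgam and Itgax were dim, from -0.722 to -0.629 in KO mice and from -0.774 to -0.624 in control mice. The 4 B-cell and 7 NK and cytotoxic markers had medians of -0.0331 and 0.026, and the 7 epithelial and stromal markers one of 0.00509. Stress and dissociation genes had 3 of 12 differences above 0 and a median of -0.0979, and limma called 0. At an unadjusted p under 0.05, 2 were higher and 5 lower, beside 3.37% and 4.22% of all symbols. Without control 3, 0 were higher and 5 lower, beside 3.69% and 3.89%. The part of these markers in the differences of the interferon-stimulated genes was not tested.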

How the data were processed

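The deposited table holds 1 score per probe and mouse. Per the values, the authors standardised each array to mean 0 and SD 1, so the deposited scores have no fold-change scale. The submitters' processing notes name GenomeStudio 2010.1 with no role, and background correction is not given in the sources used here. Column medians were -0.493, -0.489 and -0.491 in KO mice and -0.488, -0.491 and -0.487 in control mice. Direction follows the array columns, and the scale and centring before standardisation are unknown. No detection p-values or batches were used. Precision is limited by having 3 mice in each genotype.

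Scores were quantile-normalized, and all 25697 probes were fitted in limma 3.58.1 (R 4.3.3; lmFit, eBayes with trend, two-sided, Benjamini-Hochberg over all probes, threshold 0.05), KO minus control, with no filter, so that every gene has a value. The planned test for log-scale values was applied to scores. The probes of 38 genes lay above and those of 6 under the 40th percentile of the mean. GEO's platform annotation, updated through RefSeq identifiers (GRCm38.p6), gave 23978 probes 1 symbol, 0 several and 1719 none. 23962 identifiers matched, and 16 kept the platform symbol.

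The members and lists were chosen with earlier results of these data known. Per-mouse values are given for genes among the 6 with the lowest unadjusted p in each of 4 role groups, and a few others were named after their values were seen, as were second probes. Up to 3 genes with the lowest unadjusted p were named per pathway list, and Ifnb1 was named besides. The fit was run on data simulated independently for each probe, with known shifts in some probes. Effects that genes share within a mouse were not simulated. Replicates are separate mice, per the series' design.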

Additional observations from a re-analysis of the deposited data

How the results depend on the processing

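The count of called genes was 0 under every alternative run. These were the deposited scores, median centring, filters at the 40th and 60th percentile, no variance trend, array weights, probe means, a replicate block and leaving out each mouse. Under the alternatives other than leaving out a mouse, the median difference of the genes lay between 0.04 and 0.0525. With 1 mouse left out it ran from 0.0292 to 0.0735, the count above 0 from 28 to 33 and the count higher at an unadjusted p under 0.05 from 5 to 11. The median of the signalling genes ran from -0.0102 to 0.0688, that of RNA sensors from 0.0531 to 0.104, that of effectors from 0.0225 to 0.0584 and that of GTPases from -0.000812 to 0.0419. In 15 of the 44 genes the sign turned in at least 1 fit that left out a mouse. These were Gbp2, Igtp, Irf1, Mx1, Usp18, Ifih1, Ifit1, Oas2, Oasl2, Parp9, Rtp4, Stat2, Trim21, Trim25 and Zbp1. Among settings with all mice, Gbp2 was 0.0148 with probe means, and Irgm1 was 0.0302 before quantile normalization and 0.0322 after median centring. With 1 mouse left out, Gbp2 ran from -0.0998 to 0.0149, Mx1 from -0.0121 to 0.0567, Igtp from -0.00867 to 0.0475, Irf1 from -0.0102 to 0.0829, Usp18 from -0.0704 to 0.16, Jak2 from -0.00902 to 0.0618 and Klf4 probe ILMN_2999439 from -0.0524 to 0.14. Deviations of same-numbered mice correlated at -0.0253, 0.124 and 0.029, so the numbers were not taken as pairs. With the replicate block the median stayed at 0.0447 and 10 genes were higher at an unadjusted p under 0.05.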
